A study of Mus musculus with 18 samples.

Results

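DNA replication and S phase genes were followed across 6 groups of mouse cells, as a set of 45 genes chosen by their symbols from the 18397 genes of the deposited expression table. All 45 were in the table and passed the filter on low counts, which left 12245 genes for testing. Their roles run from the loading of the replicative helicase (10 genes) through its activation (6), the sliding clamp and its loaders (7), the polymerases and primase (6), strand maturation and single-strand binding (3), the supply of deoxynucleotides and the handling of uracil (6), and chromatin and histone supply (4) to entry into S phase (3).

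The groups held 3 RNA-seq libraries each: cells on a stiff or a soft matrix with an addition labelled mito (Stiff+mito, Soft+mito), cells on either matrix in a condition labelled TW (Stiff-TW, Soft-TW), and cells on either matrix alone (Stiff, Soft). The labels spell out neither mito nor TW and give no stiffness, strain, age or time, and the series title names the transfer of mitochondria in relation to stiffness. All 18 libraries carry the cell label RAW264.7, the name of a macrophage line of mouse origin. The markers went against that label: 8 of 12 macrophage markers averaged under 1 TPM over the libraries (TPM is a share of the library's transcripts, corrected for their length), with Adgre1 between 0 and 0.083 TPM and Csf1r between 0.053 and 0.83 TPM in the group means. Cd14 (20.8 to 32.4 TPM), Lyz2 (5.59 to 30.2 TPM) and Cd68 (4.07 to 14.4 TPM) were the macrophage markers with clear levels. The epithelial and mesenchymal lists were mixed as well: Krt8, a keratin of simple epithelia, ran from 439 to 724 TPM and Pdgfra, a receptor of mesenchymal cells, from 25.9 to 67.3 TPM, but 4 of 6 epithelial markers (Epcam, Cdh1, Krt19 and Cldn4) and 3 of 8 mesenchymal ones (Thy1, Dcn and Lum) averaged under 1 TPM. No single list was present as a whole, and the cells are called by their group names only. The total of estimated counts ran from 16054637 to 16887244 per library, and the 45 genes had between 52 and 7991 counts in a library.

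Before a cell copies its genome, the origin recognition complex, Cdc6 and Cdt1 load the ring-shaped MCM2-7 helicase onto origins in G1. At the start of S phase Cdc45 and the GINS complex join it, the helicase unwinds the DNA, primase and the polymerases copy it, and the PCNA clamp, opened and closed by the RFC loader, holds the polymerases on the strand. Many of these genes are transcribed in late G1 by E2F factors, which the Rb family holds in check until cyclin kinases release them, so their RNA is widely used as a sign of cells that cycle. In bulk RNA, fewer cells in S phase and less RNA per cell cannot be told apart.

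The E2F element is shown first because it is the best known shared feature of these promoters. RefSeq promoters (GRCm38.p6) were found for 36 of the 45 genes, and only the first start listed for each gene was used. The 250 bases before that start were searched on both strands for TTT, then 2 bases that are each C or G, then CGC. The element was in 8 of the 36 (22.2%), against 517 of the 27025 genes with a promoter, each by its first listed start (1.91%). Of the 9440 such genes that averaged at least 10 counts here, 332 had it (3.52%). CCAAT was in 21 of the 36 (58.3%), against 34.5% of all promoters and 37.8% of those of genes with such counts. The 8 genes with the E2F element were Mcm5, Mcm6, Mcm7, Cdc6, Orc1, Gins3, Rfc3 and Pola1. Stretches around it are given 5′ to 3′ on the strand of the gene for 6 of them, with the element in capitals; it overlaps a second copy on the other strand in Mcm5 and Mcm6, the stretches of Cdc6 and Pola1 lie inside the annotated gene, before the start of one of its transcripts, and the other 4 lie before the annotated gene. Mcm6 has a further copy 47 bases before the start, outside the stretch shown. A match is a description of letters and not a site, and its absence from these windows says nothing about the factor.
Mcm5, chr8:75109346-75109377, plus strand: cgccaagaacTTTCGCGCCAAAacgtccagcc
Mcm6, chr1:128359798-128359825, minus strand: ggcgtatgctTTTGGCGCGAAAagtgcg
Cdc6, chr11:98908003-98908030, plus strand: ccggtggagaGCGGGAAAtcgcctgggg
Gins3, chr8:95633508-95633535, plus strand: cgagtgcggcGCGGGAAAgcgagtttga
Rfc3, chr5:151651209-151651228, minus strand: cgtcgcacgcTTTCGCGCtc
Pola1, chrX:93632276-93632303, minus strand: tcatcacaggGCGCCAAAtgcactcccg

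By level, Pcna stood apart from the other 44 genes, with a mean of 532 TPM over the 18 libraries. The next were Mcm6 (88.3 TPM) and Mcm7 (87.5 TPM), Rrm2 (85.1 TPM) and Rrm1 (74.7 TPM), the subunits of ribonucleotide reductase, and Slbp (80.5 TPM), which binds the stem-loop at the end of histone mRNA. Genes under a mean of 10 TPM numbered 5: Ung (4.42 TPM), the uracil-DNA glycosylase, Dscc1 (7.14 TPM), part of an alternative clamp loader, Cdc6 (7.54 TPM), Orc1 (8.50 TPM) and Pole (8.53 TPM), the catalytic subunit of polymerase epsilon. Ranked by group mean TPM, 28 of the 45 were lowest in Soft-TW and 13 in Stiff-TW, whereas 21 were highest in Stiff and 16 in Soft. Such ranks were not counted for all genes, and they depend on the scale. By counts scaled to a common library size, Mcm4, Orc1, Orc6, Rfc2, Rrm2 and Ccne1 were highest in Soft+mito in place of Soft. Mcm5 was then highest in Stiff. The 45 genes together summed to 1997 to 2008 TPM in Stiff+mito libraries, 2335 to 2367 in Soft+mito, 1739 to 1770.1 in Stiff-TW, 1728 to 1753 in Soft-TW, 2208 to 2265 in Stiff and 2453 to 2467 in Soft. Pcna makes up a large part of that sum, so it does not weigh the genes equally.

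**Figure D1:**
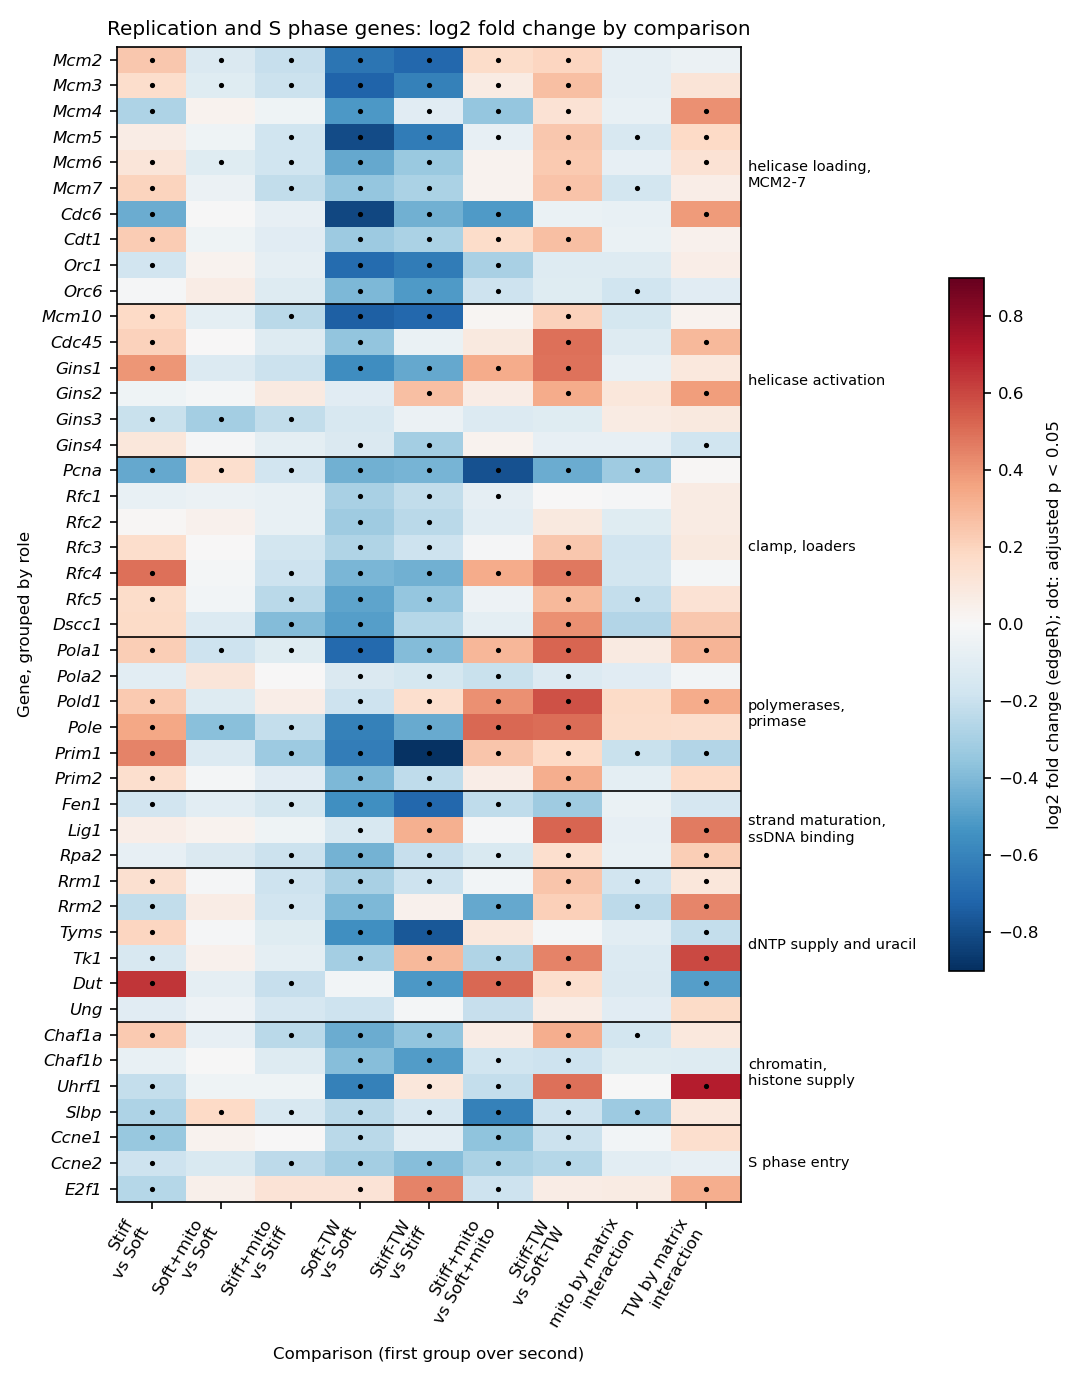
Log2 fold change (colour, edgeR) of each of the 45 genes, in rows grouped by role, for 7 comparisons of groups (first over second) and 2 interactions (response on Stiff minus response on Soft), with a dot where the adjusted p was under 0.05. The TW columns are mostly blue, with 40 genes lower in Soft-TW and 33 in Stiff-TW, while the Stiff vs Soft column mixes 19 higher and 13 lower genes.

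TW lowered nearly the whole set on the soft matrix. In Soft-TW against Soft libraries 40 genes were lower and 1 was higher at an adjusted p under 0.05 (edgeR's quasi-likelihood test with Benjamini-Hochberg adjustment over 12245 genes), where 28.0% of all tested genes were lower and 28.9% higher. The median log2 fold change of the 45 was -0.40, against 0.00 for all tested genes; on the TPM scale these medians were both lower by about as much, -0.50 for the 45 with a shift of -0.105 for all genes. All 10 helicase loading genes, all 7 clamp and clamp loader genes, all 6 polymerase and primase genes, all 3 strand maturation genes and all 4 chromatin genes fell, as did 4 of 6 helicase activation genes and 4 of 6 genes of deoxynucleotide supply. The libraries of the compared groups did not overlap for 42 of the 45, against 60.5% of all tested genes. Values of single libraries are given as CPM, counts scaled to a common library size with the same factors as the tests, and these compare libraries, not genes.

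Cdc6 (chromosome 11, 98907709 to 98923942 on mm10), which loads the helicase, had 15.5, 16.0 and 15.4 CPM in Soft-TW libraries, against 28.0, 27.8 and 27.1 CPM in Soft libraries. Every Soft-TW library lay far under every Soft library (log2 fold change -0.82, SE 0.068, adjusted p = 3.35e-20). Mcm5 (chromosome 8, 75109468 to 75128439), a subunit of the helicase ring, had 62.6, 61.0 and 63.7 CPM in Soft-TW libraries, against 108, 109 and 111 CPM in Soft libraries. The groups were again wide apart, and Mcm5 had the largest fall among the 6 ring subunits (log2 fold change -0.81, SE 0.035, adjusted p = 1.92e-40). Mcm10, which helps to activate the loaded helicase, had 14.6, 14.1 and 15.4 CPM in Soft-TW libraries, against 24.6, 26.3 and 22.6 CPM in Soft libraries (log2 fold change -0.74, SE 0.069, adjusted p = 3.87e-17). Mcm3 had 67.3, 68.0 and 67.2 CPM in Soft-TW libraries, against 107, 110.5 and 116 CPM in Soft libraries (log2 fold change -0.72, SE 0.036, adjusted p = 3.41e-35). For Mcm10 and Mcm3 too the groups did not overlap.

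The helicase loading genes had a median log2 fold change of -0.585, the largest median fall of any role. Away from the helicase only the largest falls were of a like order. The largest among the polymerase genes was that of Pola1, the catalytic subunit of polymerase alpha (log2 fold change -0.70, SE 0.050, adjusted p = 7.32e-24), ahead of Prim1, the small primase subunit (-0.62), and Pole (-0.61). Pcna fell by 0.43 on the log2 scale (SE 0.025, adjusted p = 9.45e-27), and its library values were 296, 302 and 306 CPM in Soft-TW libraries, against 398, 411 and 409 CPM in Soft libraries. Uhrf1, which brings the maintenance methyltransferase to newly copied DNA, fell by 0.61 (SE 0.039, adjusted p = 3.73e-25). Both E cyclins, which start S phase with Cdk2, were lower in Soft-TW: Ccne1 with 14.6, 15.3 and 16.8 CPM in Soft-TW libraries, against 18.2, 18.7 and 18.5 CPM in Soft libraries (log2 fold change -0.24, SE 0.074, adjusted p = 0.00316), and Ccne2 with 17.3, 17.7 and 16.1 CPM in Soft-TW libraries, against 21.7, 22.4 and 19.0 CPM in Soft libraries (log2 fold change -0.31, SE 0.073, adjusted p = 1.76e-04). The groups did not overlap for either cyclin.

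The gene that was higher in Soft-TW was E2f1, which codes for a member of the E2F family. It had 48.8, 51.1 and 51.4 CPM in Soft-TW libraries, against 45.2, 46.4 and 47.3 CPM in Soft libraries (log2 fold change 0.12, SE 0.047, adjusted p = 0.02). The groups lay close to each other, and the call was lost with library totals in place of TMM (adjusted p = 0.212), with DESeq2 (0.135), on the TPM scale (0.795), and without Soft-TW replicate 2 (0.115), Soft-TW replicate 3 (0.0753) or Soft replicate 1 (0.0761). The 4 genes not called were Gins2, Gins3, Dut and Ung, with log2 fold changes from -0.14 for Gins3 to -0.03 for Dut and -0.19 for the weakly expressed Ung.

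**Figure D2:**
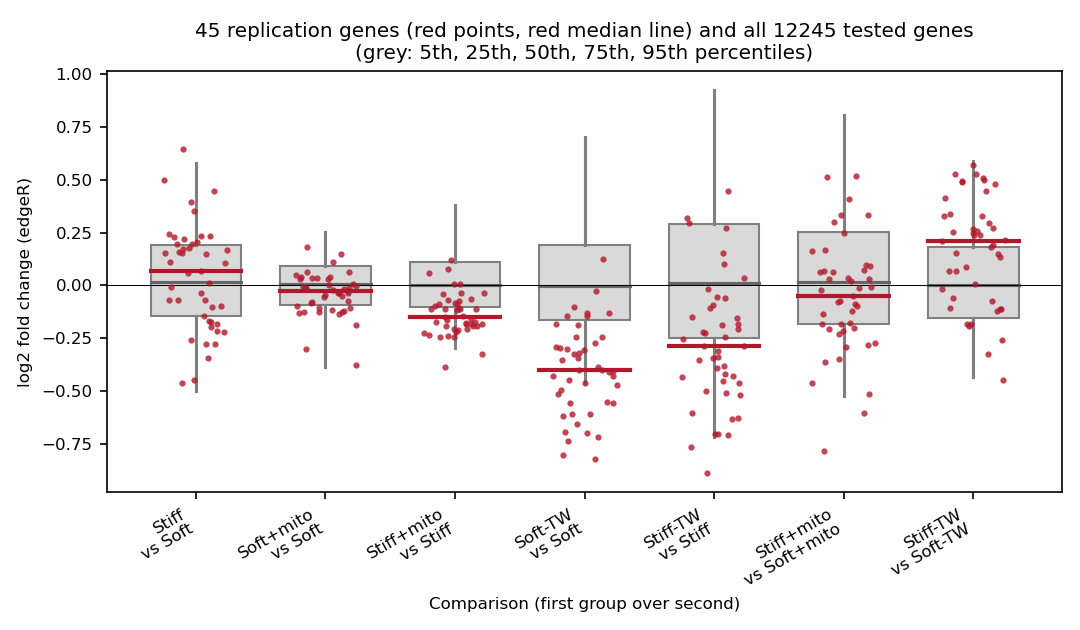
Log2 fold change (edgeR) of the 45 genes (red points, with their median as a red line) beside all 12245 tested genes (grey box from the 25th to the 75th percentile with the median, lines to the 5th and 95th) in 7 comparisons of groups. The red median lies at -0.40 in Soft-TW vs Soft and at -0.29 in Stiff-TW vs Stiff, under the grey boxes' medians of 0.00 and 0.01.

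On the stiff matrix TW lowered 33 genes and raised 6, where 34.1% of all tested genes were lower and 35.5% higher. The median of the 45 was -0.29 on the log2 scale, against 0.01 for all tested genes. The 10 helicase loading genes fell here too, as did 6 of 7 clamp genes and 5 of 6 polymerase and primase genes. Of the 45, 32 were lower under TW on both matrices, which do not share libraries. The share of all tested genes that were lower on both was not counted, so this number has no background. The libraries did not overlap for 38 genes, against 72.2% of all tested genes.

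Prim1 (chromosome 10, 128015215 to 128030030) had 30.3, 27.0 and 29.7 CPM in Stiff-TW libraries, against 51.5, 54.0 and 55.5 CPM in Stiff libraries. It had the largest fall of the 45 in any comparison of groups (log2 fold change -0.89, SE 0.050, adjusted p = 6.89e-32). Tyms, thymidylate synthase, had 23.8, 23.1 and 24.5 CPM in Stiff-TW libraries, against 39.3, 39.2 and 42.7 CPM in Stiff libraries (log2 fold change -0.77, SE 0.055, adjusted p = 2.33e-24). Its counts were estimates divided among sequences that share reads in all 18 libraries, so its values are less certain than those of Prim1. Fen1, the flap endonuclease that trims Okazaki fragments, had 19.0, 17.6 and 19.1 CPM in Stiff-TW libraries, against 30.1, 29.5 and 31.4 CPM in Stiff libraries (log2 fold change -0.71, SE 0.063, adjusted p = 7.69e-19). Mcm2 had 69.9, 68.3 and 72.6 CPM in Stiff-TW libraries, against 112, 114 and 118 CPM in Stiff libraries (log2 fold change -0.70, SE 0.035, adjusted p = 8.43e-36). None of these 4 genes had overlapping groups.

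The 6 genes that rose in Stiff-TW were E2f1, Lig1, Tk1, Gins2, Pold1 and Uhrf1. E2f1 had 56.7, 49.95 and 51.8 CPM in Stiff-TW libraries, against 38.2, 41.4 and 36.6 CPM in Stiff libraries, with every Stiff-TW library higher (log2 fold change 0.45, SE 0.049, adjusted p = 3.86e-14). Lig1, which seals Okazaki fragments, had a log2 fold change of 0.32 (SE 0.040, adjusted p = 8.86e-12), and Tk1, thymidine kinase of the salvage pathway, 0.29 (SE 0.051, adjusted p = 3.26e-07). The remaining calls were weaker: Gins2 (0.27) was lost without Stiff replicate 2 (adjusted p = 0.0668), Pold1 (0.15) with library totals (0.052) and with DESeq2 (0.0533), and Uhrf1 (0.10) with library totals (0.22), with DESeq2 (0.115), on the TPM scale (0.354) and without any of Stiff-TW replicates 1 and 2 or Stiff replicates 1 and 2 (from 0.0615 to 0.163). E2f1 was the member called higher under TW on both matrices, within the limits given for Soft, while Cdc6 and the 6 ring subunits fell on both.

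Other cell type markers moved with TW. The 12 macrophage markers summed to 55.7 to 58.0 TPM in Stiff-TW libraries, against 33.2 to 37.9 TPM in Stiff libraries, and to 83.3 to 85.8 TPM in Soft-TW libraries, against 40.8 to 42.2 TPM in Soft libraries. Of the 7 with enough counts to test, 6 were higher in each of these comparisons. Of all tested genes, 35.5% were higher and 34.1% lower in Stiff-TW, and 28.9% higher and 28.0% lower in Soft-TW. Csf1r, Adgre1, Ptprc, Itgam, Mrc1 and Spi1 stayed under 1 TPM in every group mean. Tyrobp and Fcer1g, which were not tested, averaged 3.00 and 1.92 TPM in Soft-TW, against 0 TPM each in Soft. In Stiff-TW they averaged 0.47 and 0.55 TPM, against 0.13 and 0 TPM in Stiff. The 8 fibroblast and mesenchymal markers summed to 144.9 to 148.4 TPM in Stiff-TW libraries, against 85.1 to 86.3 TPM in Stiff libraries, and to 102.5 to 104.3 TPM in Soft-TW libraries, against 67.4 to 70.3 TPM in Soft libraries. Of the 5 tested, 4 were higher and 1 lower in Stiff-TW, and 2 were higher in Soft-TW. The 6 epithelial markers summed to 670.6 to 682.3 TPM in Stiff-TW libraries, against 695.5 to 713.5 TPM in Stiff libraries, and to 764.2 to 783.4 TPM in Soft-TW libraries, against 998.9 to 1028 TPM in Soft libraries. Their 2 tested members, Krt8 and Krt18, were both lower in Soft-TW (-0.305 and -0.21 on the log2 scale) and did not pass in Stiff-TW (0.00 and -0.01). The part of these markers in the lower replication genes was not tested.

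**Figure D3:**
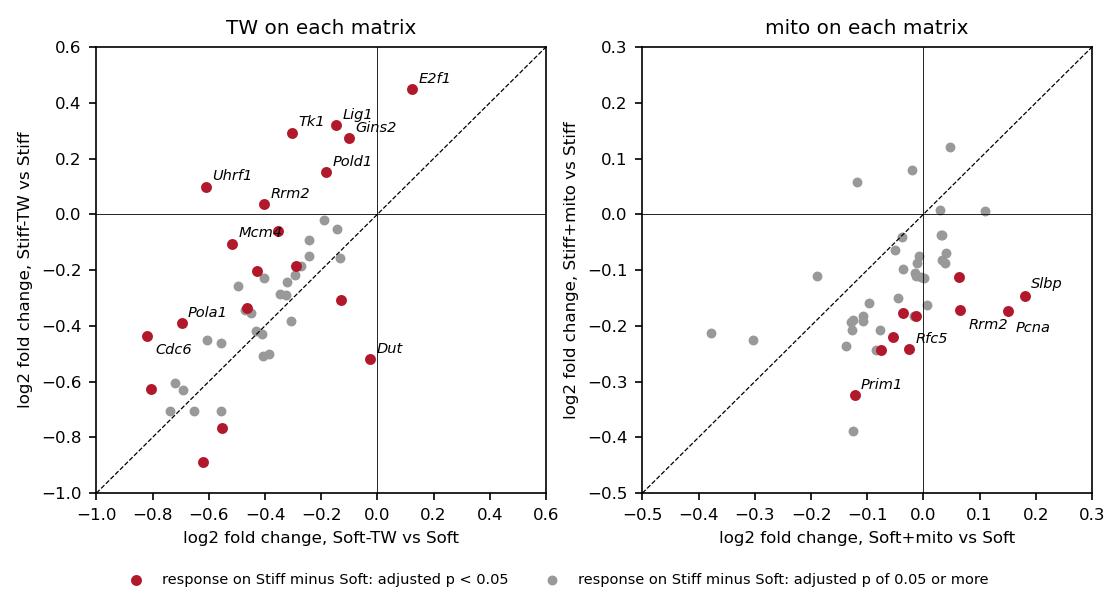
Log2 fold change of each gene on Stiff (vertical axis) against that on Soft (horizontal axis) for TW (left) and mito (right), with genes whose responses differed between the matrices (adjusted p under 0.05) in red and a dashed line where both are equal. In the TW panel Uhrf1, Tk1 and E2f1 lie above the line and Dut lies under it; in the mito panel Pcna and Slbp lie right of 0 and under it.

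How far TW moved a gene depended on the matrix for 19 of the 45, where 36.1% of all tested genes had such an interaction. The response on Stiff was more positive for 15 genes and more negative for 4, against 16.4% and 19.7% of all tested genes, and on the TPM scale the split was 19 and 2. Uhrf1 (chromosome 17, 56303337 to 56323486) had 93.8, 92.0 and 86.7 CPM in Stiff-TW libraries, against 83.8, 81.8 and 88.7 CPM in Stiff libraries. On the soft matrix it had 61.3, 65.3 and 66.7 CPM in Soft-TW libraries, against 99.4, 97.6 and 98.1 CPM in Soft libraries. The Soft-TW libraries were the low ones, and the responses differed by 0.71 on the log2 scale (SE 0.055, adjusted p = 6.09e-20).

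Tk1 went opposite ways. It had 43.0, 46.0 and 41.5 CPM in Stiff-TW libraries, against 36.1, 34.7 and 35.7 CPM in Stiff libraries. It had 33.4, 29.4 and 33.0 CPM in Soft-TW libraries, against 39.2, 38.9 and 39.96 CPM in Soft libraries. It rose on the stiff matrix and fell on the soft one, a difference of 0.59 (SE 0.074, adjusted p = 3.25e-11), though its counts were not whole in 55.6% of libraries. For Dut (chromosome 2, 125247248 to 125259049), the dUTPase that keeps uracil out of DNA, the difference between the responses had the opposite sign. It had 51.3, 52.9 and 53.5 CPM in Stiff-TW libraries, against 74.4, 71.8 and 79.8 CPM in Stiff libraries. It had 46.3, 47.1 and 48.7 CPM in Soft-TW libraries, against 43.9, 49.8 and 51.0 CPM in Soft libraries. The fall stood on the stiff matrix, where its level without TW was high, while the soft groups overlapped, and the responses differed by -0.49 (SE 0.064, adjusted p = 1.96e-10). Ung, which removes uracil from DNA, had no call in any of the 7 comparisons or 2 interactions, with 52 to 90 estimated counts per library.

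Under TW most of the genes called between the matrices were higher on Stiff. In Stiff-TW against Soft-TW libraries 28 genes were higher and 7 lower, where 27.6% of all tested genes were higher and 26.7% lower, with a median of 0.21 on the log2 scale. The libraries did not overlap for 35 of the 45, against 59.9% of all tested genes. Pold1, the catalytic subunit of polymerase delta (0.57), Lig1 (0.53), Pola1 (0.53), Pole (0.51), Cdc45 (0.50) and Uhrf1 (0.49) led the higher genes. Pcna (-0.45), Fen1 (-0.32), Ccne2 (-0.26), Ccne1 (-0.19), Slbp (-0.18), Chaf1b (-0.18) and Pola2 (-0.12) were the 7 lower ones. The marker lists differed here too: the macrophage markers summed to 55.7 to 58.0 TPM in Stiff-TW libraries, against 83.3 to 85.8 TPM in Soft-TW libraries (0 higher and 3 lower of 7 tested). The mesenchymal markers summed to 144.9 to 148.4 TPM in Stiff-TW libraries, against 102.5 to 104.3 TPM in Soft-TW libraries (5 of 5 higher), and the epithelial markers to 670.6 to 682.3 TPM in Stiff-TW libraries, against 764.2 to 783.4 TPM in Soft-TW libraries (1 of 2 lower). Their part in the result was not tested.

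**Figure D4:**
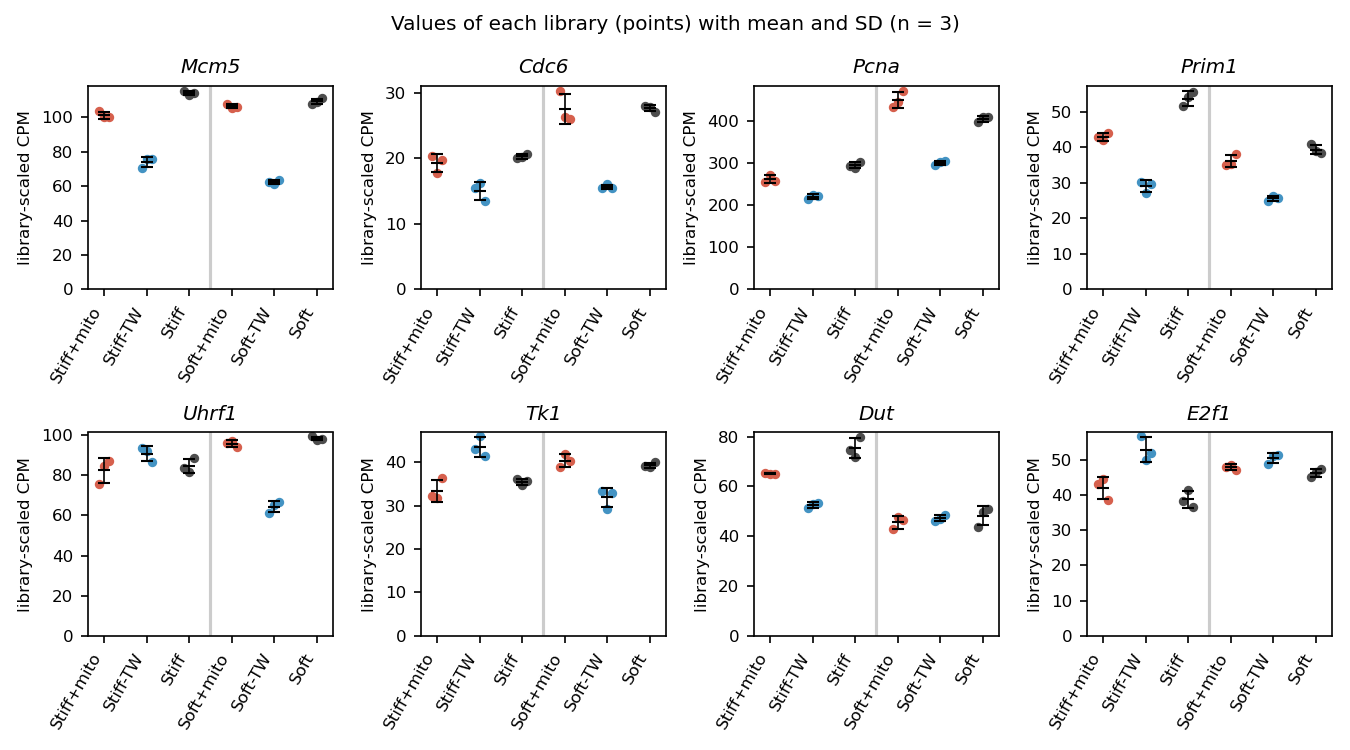
Library-scaled CPM (vertical axes from 0) of 8 genes in each library (points) with the group mean and SD (n = 3), Stiff groups left of the grey line and Soft groups right of it. Mcm5, Cdc6, Pcna and Prim1 are lower in the TW libraries of both matrices, Uhrf1 and Tk1 are low in Soft-TW, Dut is highest in Stiff, and E2f1 is lowest in Stiff.

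The addition of mito had smaller effects, and by edgeR they were clearer on the stiff matrix. That contrast hung on the scaling. On the TPM scale the median of the 45 in Soft+mito against Soft was -0.115 on the log2 scale, in place of -0.025. The median difference of the mito responses, Stiff minus Soft, was then -0.007 in place of -0.098. In Stiff+mito against Stiff libraries 22 genes were lower, where 17.8% of all tested genes were lower and 15.6% higher, and 0 of the 45 were higher by edgeR (1 at an unadjusted p under 0.05, and 0 by DESeq2). The median of the 45 was -0.15 on the log2 scale, against 0.00 for all tested genes. The lower genes included 5 of the 6 ring subunits, 4 of 7 clamp genes, 3 of 6 polymerase and primase genes, and Rrm1, Rrm2 and Dut. The macrophage markers summed to 41.4 to 44.7 TPM in Stiff+mito libraries, against 33.2 to 37.9 TPM in Stiff libraries, and in Soft+mito libraries to 49.9 to 54.3 TPM, against 40.8 to 42.2 TPM in Soft libraries. The mesenchymal markers summed to 99.4 to 106.2 TPM in Stiff+mito libraries, against 85.1 to 86.3 TPM in Stiff libraries (4 of 5 tested were higher), and to 60.8 to 64.4 TPM in Soft+mito libraries, against 67.4 to 70.3 TPM in Soft libraries (2 of 5 lower). The epithelial markers summed to 733.1 to 758.6 TPM in Stiff+mito libraries, against 695.5 to 713.5 TPM in Stiff libraries, and to 1031 to 1043 TPM in Soft+mito libraries, against 998.9 to 1028 TPM in Soft libraries, with both tested markers higher on each matrix. In Soft+mito against Soft, 14.8% of all tested genes were higher and 11.9% lower. The part of these markers in the mito results was not tested. The libraries did not overlap for 31 of the 45, against 43.7% of all tested genes.

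Prim1 had 42.8, 41.9 and 43.9 CPM in Stiff+mito libraries, against 51.5, 54.0 and 55.5 CPM in Stiff libraries. All Stiff+mito libraries were lower (log2 fold change -0.32, SE 0.046, adjusted p = 4.44e-09). Mcm10 had 22.1, 23.8 and 24.2 CPM in Stiff+mito libraries, against 28.5, 26.5 and 28.1 CPM in Stiff libraries (log2 fold change -0.24, SE 0.062, adjusted p = 8.95e-04). Chaf1a, the large subunit of the chromatin assembly factor that deposits histones behind the fork, had 49.9, 52.7 and 49.7 CPM in Stiff+mito libraries, against 59.8, 58.8 and 61.6 CPM in Stiff libraries (log2 fold change -0.24, SE 0.044, adjusted p = 2.98e-06), from counts that were not whole in any library. Dscc1 had 4.71, 4.04 and 4.44 CPM in Stiff+mito libraries, against 5.38, 6.03 and 5.86 CPM in Stiff libraries. It had the largest fold but low counts (log2 fold change -0.39, SE 0.14, adjusted p = 0.0211), and the call was lost with DESeq2 (adjusted p = 0.106) and without Stiff+mito replicate 2 (0.0944), Stiff replicate 2 (0.0778) or Stiff replicate 3 (0.056). Of the S phase entry genes, Ccne2 had 15.7, 15.4 and 16.1 CPM in Stiff+mito libraries, against 20.2, 17.6 and 17.7 CPM in Stiff libraries (log2 fold change -0.24, SE 0.077, adjusted p = 0.0113), a call lost with DESeq2 (adjusted p = 0.0665) and without Stiff replicate 1 (0.139). Ccne1 (0.01) and E2f1 (0.12) did not pass the test.

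On the soft matrix mito lowered 6 genes and raised 2, where 11.9% of all tested genes were lower and 14.8% higher, shares no larger than those of all genes for the higher ones and close to them for the lower ones. The libraries did not overlap for 16 of the 45, against 37.6% of all tested genes. This count hung on the scaling: on the TPM scale, which moves the median of all tested genes by -0.09 in this comparison, 20 genes were lower and 0 higher. Pole had 29.6, 32.8 and 28.4 CPM in Soft+mito libraries, against 41.1, 38.6 and 38.2 CPM in Soft libraries, all Soft+mito libraries being lower (log2 fold change -0.38, SE 0.053, adjusted p = 4.26e-09). Gins3, a subunit of the GINS complex, had 18.7, 21.1 and 22.5 CPM in Soft+mito libraries, against 25.6, 24.9 and 26.4 CPM in Soft libraries (log2 fold change -0.30, SE 0.066, adjusted p = 1.50e-04). Pola1 had 46.9, 48.1 and 43.1 CPM in Soft+mito libraries, against 51.9, 51.4 and 54.0 CPM in Soft libraries (log2 fold change -0.19, SE 0.046, adjusted p = 8.05e-04). The groups did not overlap for Pole, Gins3 or Pola1, and these calls held on the TPM scale.

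Slbp and Pcna were the 2 that rose. Slbp had 103, 106 and 108 CPM in Soft+mito libraries, against 96.6, 91.3 and 91.7 CPM in Soft libraries (log2 fold change 0.18, SE 0.034, adjusted p = 1.15e-05). Pcna had 434, 447 and 471 CPM in Soft+mito libraries, against 398, 411 and 409 CPM in Soft libraries (log2 fold change 0.15, SE 0.024, adjusted p = 3.39e-07). The groups did not overlap for either gene, but on the TPM scale neither passed (adjusted p = 0.0954 for Slbp and 0.0902 for Pcna). Mcm2, Mcm3 and Mcm6 completed the lower genes, with log2 fold changes of -0.13, -0.11 and -0.11; Mcm2 was lost without Soft+mito replicate 1 (adjusted p = 0.0524), and Mcm3 with DESeq2 (0.0669) and without Soft+mito replicate 2 (0.178) or Soft replicate 3 (0.158). The E cyclins and E2f1 had log2 fold changes from -0.14 for Ccne2 to 0.05 for E2f1 and did not pass.

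The mito response differed between the matrices for 10 of the 45 (23.6% of all tested genes), each with a more negative response on Stiff (13.1% of all tested genes). By edgeR 0 were more positive (10.4% of all tested genes; 2 at an unadjusted p under 0.05, and 0 by DESeq2), but with library totals the split was 2 more positive and 5 more negative, and on the TPM scale 1 and 3, where all-gene medians moved by 0.03 and 0.08. The 3 of largest size were Slbp, Pcna and Rrm2. Slbp had 65.5, 70.9 and 72.0 CPM in Stiff+mito libraries, against 77.1, 75.9 and 77.6 CPM in Stiff libraries, lower where it had been higher on Soft, and the responses differed by -0.33 (SE 0.051, adjusted p = 2.38e-07). Pcna had 255, 272 and 258 CPM in Stiff+mito libraries, against 295, 288 and 303 CPM in Stiff libraries, again lower, with a difference of -0.32 (SE 0.035, adjusted p = 6.85e-12).

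Rrm2, the subunit of ribonucleotide reductase that is made in S phase, had 90.7, 86.3 and 87.4 CPM in Stiff+mito libraries, against 98.8, 100.1 and 99.1 CPM in Stiff libraries. On the soft matrix it had 121, 121 and 122 CPM in Soft+mito libraries, against 115, 115 and 117 CPM in Soft libraries. The stiff groups parted downward and the soft groups lay close together, a difference of -0.24 (SE 0.045, adjusted p = 2.15e-05). These 3 interactions passed under every alternative and without any single library.

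Between the matrices alone the set went both ways. In Stiff against Soft libraries 19 genes were higher and 13 lower, where 29.1% of all tested genes were higher and 24.7% lower, with a median of 0.07 on the log2 scale against 0.02 for all genes. On the TPM scale, which moves the all-gene median by -0.08 here, the split was 11 higher and 17 lower and the median of the 45 was -0.02. Of the 6 polymerase and primase genes 5 were higher (Pola1 lost its call on the TPM scale, and Prim2 with library totals and with DESeq2), while all 3 S phase entry genes were lower. The other roles were mixed, with 5 higher and 3 lower of the 10 helicase loading genes and 3 higher and 2 lower of the 6 genes of deoxynucleotide supply, and no difference between roles was tested. The libraries did not overlap for 36 of the 45, against 58.2% of all tested genes. The 8 fibroblast and mesenchymal markers summed to 85.1 to 86.3 TPM in Stiff libraries, against 67.4 to 70.3 TPM in Soft libraries. Of the 5 tested, 4 were higher and 1, Pdgfra (-0.21), was lower. The 6 epithelial markers summed to 695.5 to 713.5 TPM in Stiff libraries, against 998.9 to 1028 TPM in Soft libraries (2 of 2 tested lower). The 12 macrophage markers summed to 33.2 to 37.9 TPM in Stiff libraries, against 40.8 to 42.2 TPM in Soft libraries (1 higher and 3 lower of 7 tested). The part of these markers in the result was not tested. This comparison shares its Soft libraries with those of Soft+mito and Soft-TW, and its Stiff libraries with those of Stiff+mito and Stiff-TW, so a high value in Stiff enters both.

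Dut had the largest matrix difference, with 74.4, 71.8 and 79.8 CPM in Stiff libraries, against 43.9, 49.8 and 51.0 CPM in Soft libraries. Every Stiff library was far above every Soft library (log2 fold change 0.64, SE 0.043, adjusted p = 1.48e-25). Rfc4, a clamp loader subunit, had 33.9, 35.9 and 32.6 CPM in Stiff libraries, against 23.3, 23.9 and 25.4 CPM in Soft libraries (log2 fold change 0.50, SE 0.059, adjusted p = 3.06e-12). Prim1 had 51.5, 54.0 and 55.5 CPM in Stiff libraries, against 40.8, 38.8 and 38.2 CPM in Soft libraries (log2 fold change 0.45, SE 0.046, adjusted p = 4.76e-15). These 3 were higher in Stiff with no overlap, and each kept its call on the TPM scale.

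Pcna (chromosome 2, 132249286 to 132253180) was lower on the stiff matrix, with 295, 288 and 303 CPM in Stiff libraries, against 398, 411 and 409 CPM in Soft libraries. It was lower in every Stiff library (log2 fold change -0.46, SE 0.025, adjusted p = 2.77e-28). Of the subunits of its loader, Rfc4 was higher as given above and Rfc5 by 0.17, a call lost with library totals (adjusted p = 0.0534), with DESeq2 (0.0966), on the TPM scale (0.139) and without Stiff replicate 2 (0.167). Rfc1 (-0.07), Rfc2 (0.01) and Rfc3 (0.155) did not pass the test. Cdc6 (-0.45), Mcm4 (-0.28) and Slbp (-0.28) were lower in Stiff like Pcna, each with an adjusted p under 0.05 and no overlap. Ccne1 had 15.1, 14.6 and 14.0 CPM in Stiff libraries, against 18.2, 18.7 and 18.5 CPM in Soft libraries (log2 fold change -0.34, SE 0.075, adjusted p = 5.57e-05). E2f1 had 38.2, 41.4 and 36.6 CPM in Stiff libraries, against 45.2, 46.4 and 47.3 CPM in Soft libraries (log2 fold change -0.26, SE 0.050, adjusted p = 5.51e-06). Both were lower with no overlap. Ccne2 had 20.2, 17.6 and 17.7 CPM in Stiff libraries, against 21.7, 22.4 and 19.0 CPM in Soft libraries; these overlapped, its counts were not whole in 88.9% of libraries, and its call (log2 fold change -0.18, SE 0.072, adjusted p = 0.0245) was lost with DESeq2 (adjusted p = 0.094) and without Stiff replicate 2 or 3 or Soft replicate 1 or 2 (from 0.0859 to 0.168).

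With mito on both sides, 10 genes were higher and 18 lower in Stiff+mito against Soft+mito libraries, where 32.7% of all tested genes were higher and 30.8% lower, and the libraries did not overlap for 28 of the 45, against 65.4% of all tested genes. Pcna had a log2 fold change of -0.78 there (SE 0.025, adjusted p = 3.24e-43) and Slbp of -0.60 (SE 0.036, adjusted p = 8.57e-30). Pole (0.52) and Dut (0.51) led the higher genes. The macrophage markers summed to 41.4 to 44.7 TPM in Stiff+mito libraries, against 49.9 to 54.3 TPM in Soft+mito libraries. The mesenchymal markers summed to 99.4 to 106.2 TPM in Stiff+mito libraries, against 60.8 to 64.4 TPM in Soft+mito libraries, and the epithelial markers to 733.1 to 758.6 TPM in Stiff+mito libraries, against 1031 to 1043 TPM in Soft+mito libraries. Their part was not tested.

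The 6 subunits of the MCM2-7 ring, which is built with a single copy of each, can be set beside each other in TPM. Mcm6 or Mcm7 was the highest in each of the 18 libraries. The lowest was Mcm4 in Stiff+mito and Stiff, Mcm2 in Soft+mito and Soft, and Mcm2 or Mcm5 in the TW groups, and the highest subunit was 1.84 to 2.55 times the lowest. Mcm4 averaged 43.0 ± 0.469 TPM in Stiff and 55.5 ± 0.725 TPM in Soft (SD, n = 3 each), whereas Mcm2 averaged 57.8 ± 1.77 TPM in Stiff and 52.0 ± 2.10 TPM in Soft.

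Under TW all 6 fell on both matrices, but unequally. Mcm4 had 84.8, 83.1 and 86.8 CPM in Stiff-TW libraries, against 92.4, 91.4 and 90.2 CPM in Stiff libraries. It had 79.7, 79.5 and 73.1 CPM in Soft-TW libraries, against 109, 111 and 113 CPM in Soft libraries. Its fall was small on Stiff (log2 fold change -0.10, SE 0.036, adjusted p = 0.00645) and larger on Soft (log2 fold change -0.52, SE 0.035, adjusted p = 4.61e-26), and the difference passed the test (0.41, SE 0.050, adjusted p = 1.31e-11). Mcm6 fell by 0.34 on Stiff and by 0.46 on Soft, and Mcm7 by 0.29 and 0.35 (log2 scale), less than Mcm2, Mcm3 and Mcm5. Mcm6 had 143, 139 and 143 CPM in Stiff-TW, 115, 120.4 and 126 in Soft-TW, 177, 180.5 and 180.4 in Stiff and 162, 169 and 167 in Soft libraries. Mcm7 had 122, 114 and 112 CPM in Stiff-TW, 96.0, 96.4 and 99.0 in Soft-TW, 143, 137 and 144 in Stiff and 119.6, 126 and 125 in Soft libraries. The TW libraries of each matrix lay under those of the same matrix alone for both subunits.

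**Figure D5:**
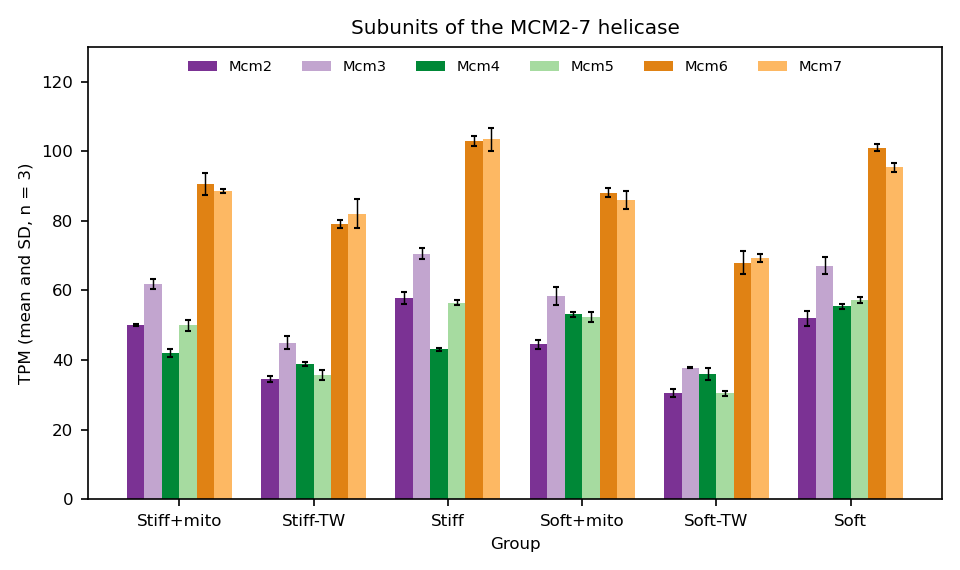
Mean TPM with SD (n = 3) of the 6 subunits of the MCM2-7 helicase in each group, on an axis from 0. Mcm6 and Mcm7 are the tallest bars in every group, and all 6 bars are shorter in Stiff-TW than in Stiff and in Soft-TW than in Soft.

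Dut and Ung each give rise to a nuclear and a mitochondrial protein, which is known from the human genes and which bears on a series about mitochondria. In the deposited transcript table, the more abundant of 2 Dut transcripts held 73.7% to 87.6% of the gene's estimated counts in a library. Its share averaged 84.9% ± 3.70 in Stiff+mito and 78.8% ± 2.40 in Soft+mito, 80.7% ± 2.84 in Stiff-TW and 77.5% ± 3.48 in Soft-TW, and 83.3% ± 1.44 in Stiff and 79.4% ± 2.35 in Soft (SD, n = 3 each). The most abundant of 3 Ung transcripts held 74.4% to 100% over the libraries, with so few counts that no order of groups can be read. Which transcript codes for which protein was not read from these files, and the shares were not tested.

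Genes that work beside the 45 moved in part with them. Of 38 other replication fork genes, 29 were lower (76.3%, against 28.0% of all tested genes) and 2 higher in Soft-TW against Soft, and 23 lower (60.5%, against 34.1% of all tested genes) and 5 higher in Stiff-TW against Stiff. Hells, a chromatin remodeller (-0.58 in Soft-TW and -0.55 in Stiff-TW on the log2 scale), and Mtbp, which takes part in origin firing (-0.60 in Soft-TW and -0.73 in Stiff-TW), were among the lower ones. Recql4, a helicase of replication initiation, was lower in Stiff-TW (-1.34) and Soft-TW (-0.68) and higher in Stiff against Soft (0.87). Pold4, the smallest subunit of polymerase delta, was among the higher ones under TW. It was higher in Stiff-TW against Stiff (1.77) and in Soft-TW against Soft (0.97), and lower in Stiff against Soft (-0.82), each with an adjusted p under 0.05. Under mito 14 of the 38 were lower (36.8%, against 17.8% of all tested genes) and 1 higher in Stiff+mito, and 8 lower (21.1%, against 11.9%) and 3 higher in Soft+mito.

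Nucleotide synthesis genes fell more on Stiff. Of 24, 19 were lower and 2 higher in Stiff-TW against Stiff, with a median of -0.64 on the log2 scale, and 19 lower and 1 higher in Soft-TW against Soft, with a median of -0.31. The 19 are 79.2% of the list, where 34.1% of all tested genes were lower in Stiff-TW and 28.0% in Soft-TW. The TW response was more negative on Stiff for 17 of the 24 (70.8%, against 19.7% of all tested genes) and more positive for 2 (8.33%, against 16.4%), where those counts were 4 and 15 for the 45 replication genes. Gart (-0.96 in Stiff-TW and -0.53 in Soft-TW) and Atic (-0.88 in Stiff-TW and -0.34 in Soft-TW), enzymes of purine synthesis, and Nme1, a nucleoside diphosphate kinase (-0.93 in Stiff-TW and -0.51 in Soft-TW), were named by the smallest adjusted p. In Stiff+mito against Stiff 17 were lower (70.8%, against 17.8% of all tested genes) and 1 higher, and in Stiff against Soft 14 were higher (58.3%, against 29.1%) and 2 lower.

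Of 15 genes of the ATR checkpoint, which watches over stalled forks, 8 were lower (53.3%, against 34.1% of all tested genes) and 1 higher in Stiff-TW, and 9 lower (60%, against 28.0%) and 2 higher in Soft-TW. Chek1, its kinase, was lower in both (-0.84 in Stiff-TW and -0.74 in Soft-TW), whereas Wee1, which delays mitosis, was higher in both (0.49 in Stiff-TW and 0.29 in Soft-TW). The 28 tested genes of E2F, Rb and G1 cyclin control did not move one way: 12 were higher and 11 lower in Stiff-TW (42.9% and 39.3%, against 35.5% and 34.1% of all tested genes), and 9 higher and 12 lower in Soft-TW (32.1% and 42.9%, against 28.9% and 28.0%). Cdkn1a, the p21 inhibitor of cyclin kinases, was higher in Soft-TW (0.39) and Soft+mito (0.30) against Soft, and in Stiff-TW against Stiff (0.35). Ccnd1, cyclin D1, was higher in Stiff-TW against Stiff (0.15) and lower in Soft-TW against Soft (-0.35), and these responses differed by 0.51 (adjusted p = 1.91e-30). Rbl2, a member of the Rb family, was higher in Stiff-TW against Stiff (0.64) and in Soft-TW against Soft (0.45). Myc was higher in Stiff against Soft (0.58) and in Soft+mito (0.33) and Stiff+mito (0.30) against the same matrix alone, while under TW it was lower in Stiff-TW (-0.17) and higher in Soft-TW (0.21), responses that differed by -0.38 (adjusted p = 8.23e-14).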

How the data were processed

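RNA from 18 libraries, 3 in each of 6 groups taken from the sample group in the labels, was selected for poly(A) and made into strand-specific libraries, per the labels' protocols. The labels name mm10 as the build, and not given in the sources used here are aligner, quantifier and counting strand. The deposited gene table holds the estimated counts (expected counts) the authors made for 18397 genes, 10.9% of values not being whole at a tolerance of 0.001, and TPM that the authors computed. A set of 44 columns of averages was not used.

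Rounded estimated counts entered edgeR 4.0.16 (R 4.3.3): filterByExpr by group left 12245 genes, TMM factors ran from 0.968 to 1.03, and 1 quasi-likelihood model (glmQLFit, robust) with 1 mean for each group took in all libraries. Each comparison, and each interaction (response on Stiff minus response on Soft), was tested by its two-sided F-test, with p-values adjusted by Benjamini-Hochberg over all tested genes, and a gene was called at an adjusted p under 0.05. The SE is the log2 fold change divided by the square root of its F. Every adjusted p printed is from this edgeR test unless DESeq2 1.42.0 or the TPM scale (limma 3.58.1 on log2(TPM + 1)) is named. Libraries of a group were close to each other: edgeR's common coefficient of biological variation came to 0.0175, and chi-square over degrees of freedom ran from 1.19 to 2.16 where pure counting error gives about 1. Nothing in the labels says that the 3 libraries came from separate cultures, so the p-values speak for these libraries alone, whose differences may be technical. The test was also run on simulated counts that gave every gene the same coefficient of variation, 0.0175. Such counts cannot check how spread differs between genes, nor whether the libraries came from separate cultures.

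The 45 genes and the other lists were chosen with earlier results of these data known. Full library values were given, in each of the 5 comparisons with a matrix alone, for up to 4 genes of largest change that were called, averaged at least 1 TPM and did not overlap, for up to 3 per interaction, and for the MCM2-7 subunits, Pcna, Ccne1, Ccne2, E2f1, Ung and Dut; other lists gave up to 3 genes per comparison by adjusted p. Further genes of the 45 were named after their values were seen. Of the 45 genes, 16 share exon bases with another gene, and 4 (Tyms, Chaf1a, Ccne2 and Tk1) had counts that were not whole in most libraries. The 16 are Mcm7, Orc1, Orc6, Cdc45, Gins2, Rfc2, Rfc4, Rfc5, Dscc1, Pole, Fen1, Lig1, Tk1, Chaf1a, Slbp and Ccne2. Apart from microRNA genes in Mcm7, the other genes lie on the opposite strand. As the counting strand is not given, how far this touches their values is not known. Alternatives were other scalings, no filter, DESeq2, only the groups compared, a replicate block, leaving out each library and, chosen after seeing the data, the TPM scale.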

Additional observations from a re-analysis of the deposited data

Results flagged for a closer look

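These results are listed because a test of the difference itself, the interaction with the matrix in edgeR's quasi-likelihood model, passed at an adjusted p under 0.05, for 10 of the 45 genes under mito and 19 under TW. The 10 are 22.2% of the 45, against 23.6% of all tested genes, and the 19 are 42.2%, against 36.1%. The counts alone therefore do not set the 45 apart. No explanation of them was tested.

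For mito, the response on Stiff minus that on Soft, on the log2 scale, was -0.327 for Slbp, -0.323 for Pcna, -0.237 for Rrm2, -0.217 for Rfc5, -0.202 for Prim1, -0.177 for Orc6, -0.17 for Rrm1, -0.168 for Chaf1a, -0.166 for Mcm7 and -0.141 for Mcm5. Slbp and Pcna were higher in Soft+mito against Soft and lower in Stiff+mito against Stiff, although on the TPM scale neither rise passed. Slbp, Pcna and Rrm2, 3 of the 10, passed under every alternative and without any single library. The other 7 were lost on the TPM scale, and Mcm5, Prim1, Chaf1a, Orc6 and Rfc5 also with library totals (adjusted p from 0.051 to 0.0985) and with DESeq2 (adjusted p from 0.0657 to 0.179). Chaf1a, Orc6 and Rfc5 were lost with only the groups compared, and Chaf1a and Rfc5 with no filter. Chaf1a, Orc6, Rfc5 and Prim1 were lost as well without single libraries (adjusted p from 0.051 to 0.214).

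For TW, the genes whose response was more positive on Stiff were Uhrf1 (0.71), Tk1 (0.595), Lig1 (0.465), Rrm2 (0.44), Mcm4 (0.41), Cdc6 (0.385), Gins2 (0.374), Pold1 (0.335), E2f1 (0.325), Pola1 (0.306), Cdc45 (0.292), Rpa2 (0.222), Mcm5 (0.179), Mcm6 (0.127) and Rrm1 (0.105). Tk1 was higher in Stiff-TW against Stiff and lower in Soft-TW against Soft, with no overlap of libraries in either comparison, and Lig1 was higher in Stiff-TW (0.32) and lower in Soft-TW (-0.15). The response was more negative on Stiff for Dut (-0.495), Prim1 (-0.267), Tyms (-0.213) and Gins4 (-0.179). Of the 19, 12 passed under every alternative and without any single library. Cdc45, Gins2, Gins4, Rpa2, Rrm1 and Tyms were lost with DESeq2 (adjusted p from 0.0667 to 0.164) and without single libraries, as was Mcm6 without Soft-TW replicate 1 (adjusted p = 0.0848). Tyms and Gins4 were also lost on the TPM scale (adjusted p = 0.126 and 0.0879), and Gins4 with library totals (adjusted p = 0.0572) and with no filter (adjusted p = 0.0756).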

How the results depend on the processing

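Over the 7 comparisons and 2 interactions the 45 genes had 234 calls, of which 173 held under every alternative and without any single library, and 0 of the called genes turned direction. With the TPM scale in place of scaled counts, 20 genes were called in Soft+mito against Soft in place of 8, and 4 in the mito interaction in place of 10. DESeq2 called 5 in the mito interaction. The TPM scale moves the all-gene median by up to 0.105 on the log2 scale; whether the rest of its effect has another cause was not tested. In the other comparisons the number of genes called in both directions together stayed within 1.5 times under every alternative, but in Stiff vs Soft the higher genes alone numbered 11 on the TPM scale in place of 19. The median of the 45 moved on the TPM scale to -0.021 for Stiff vs Soft, -0.115 for Soft+mito vs Soft, -0.501 for Soft-TW vs Soft, -0.346 for Stiff-TW vs Stiff (-0.335 with library totals) and -0.007 for the mito interaction, in place of 0.067, -0.025, -0.403, -0.288 and -0.098. Leaving out a single library gave 29 to 32 genes for Stiff vs Soft, 7 to 9 for Soft+mito vs Soft, 20 to 23 for Stiff+mito vs Stiff, 39 to 41 for Soft-TW vs Soft, 36 to 39 for Stiff-TW vs Stiff, 26 to 27 for Stiff+mito vs Soft+mito, 31 to 33 for Stiff-TW vs Soft-TW, 7 to 11 for the mito interaction and 16 to 19 for the TW interaction. With the replicate number as a replicate block the counts were 32, 8, 23, 42, 39, 28, 35, 10 and 19 in the same order. The numbers do not pair the libraries: deviations of same-numbered libraries had a median correlation of 0.006 (from -0.13 to 0.197), and 4 of 18 libraries matched best with a library of their own number. Depth limits Ung and Dscc1 most, the genes with the fewest counts.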
